A study of Saccharomyces cerevisiae with 56 samples.

Results

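In PSD-95, the carboxylate-binding loop of its PDZ3 domain was taken as the residues R318 to F325 in the numbering of the full-length protein: R318, G319, S320, T321, G322, L323, G324 and F325. Its single missense substitutions were found by aligning each protein variant in the deposited table with the wild type, and kept where exactly 1 amino acid differed, the new residue was not a stop and the authors' error was under 50. The rule gave 133 distinct substitutions of the 1178 single missense substitutions in the mutated block of 66 residues, and 1006 table entries of the 9261 for single missense substitutions. The limit on the error removed none of them: the largest error of a loop entry was 0.878, and entries beyond the limit were 8 wild-type rows with a placeholder error of 100. All 19 substitutions were measured in all sets at R318, T321, G322, L323, G324 and F325. S320 was covered in part, and no substitution at G319 met the rule in any set. The wild-type row of the table carried these letters at these numbers, with the GLGF motif of PDZ domains at G322 to F325.

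The samples were 56 amplicon libraries from the yeast strain BY4742. The domain carried the extension called N in the labels, the one called C, both of them (NC), or neither (PDZ3), and every group was measured by bindingPCA and by abundancePCA. In these protein-fragment complementation assays, growth in methotrexate depends on a reassembled dihydrofolate reductase, so that growth reads either the contact between the domain and its ligand or the amount of soluble domain in the cell. A set is 1 construct in 1 assay. For all 8 sets there were 3 input libraries, 3 output libraries and 1 wild-type library, and the labels call the cultures biological replicates. The selection ran for about 5 generations at 30 °C. What the ligand and both extensions consist of was not given in the sources used here, and yeast cells stand in for the neurons in which PSD-95 normally works.

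PDZ domains bind the last residues of partner proteins in a groove between a strand and a helix. The loop before that strand, which ends in that GLGF motif, holds the free carboxylate at the end of the partner through backbone amides, and the arginine ahead of it reaches the carboxylate through a bound water. The leucine and the phenylalanine of the motif line the hydrophobic pocket for the last side chain of the partner, the glycine between them is nearly invariant among PDZ domains, and the first position of the motif varies among them. These statements are background knowledge of PDZ domains and not results of the table.

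The deposited value is a growth score with its standard error, 1 merged value per variant and set. Scores were scaled to put the wild type at 0 and the median single nonsense variant of that set at -1, because the sets differ in growth range: the nonsense median lay between 0.891 score units (NC binding) and 1.52 score units (PDZ3 binding) below the wild type. All levels below are on this scale unless a sentence says otherwise, and ± after a single substitution is its standard error, which combines the authors' errors of the substitution and the wild type with that of the scale. A substitution was called when a two-sided normal test over these errors gave a Benjamini-Hochberg adjusted p under 0.05, adjusted over all single missense substitutions of the block. The read depth is unknown. Synonymous variants, which encode the wild-type protein, gave an unadjusted p under 0.05 in 9.13% of cases in PDZ3 binding and in up to 37.0% in PDZ3 abundance, mostly above the wild type, so that calls above the wild type are less certain than calls below it.

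The residues of the loop differed widely in what they tolerated. In binding, the mean over the 19 substitutions of G324, the nearly invariant glycine, was -0.947 in N, -0.753 in C, -0.568 in NC and -0.972 in PDZ3. The mean of T321, which lies just ahead of the motif, was within 0.0210 of the wild type in every binding set. L323 and F325, the pocket residues, and R318, the arginine, lay between these. G322, the variable first glycine of the motif, had mean binding above the wild type in all 4 constructs (0.157 ± 0.114 in N, 0.0620 ± 0.0521 in C, 0.0510 ± 0.0321 in NC and 0.0688 ± 0.173 in PDZ3), while its mean abundance was below the wild type in all 4 (-0.188 ± 0.180 in N, -0.113 ± 0.0818 in C, -0.0496 ± 0.0598 in NC and -0.485 ± 0.401 in PDZ3, SD over 19 substitutions).

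Against the wild type, fewer loop substitutions lowered abundance in the constructs with C than in those without it. In abundance, 96 of 114 measured loop substitutions (84.2%) were lower in N, where 68.4% of all single missense substitutions in the block were lower. The count was 74 of 132 (56.1%) in C, against 51.3% over the block. It was 57 of 126 (45.2%) in NC, against 39.8%. It was 97 of 117 (82.9%) in PDZ3, against 73.8%. The loop's share was above the block's in each construct, by the widest margin in N. These shares do not cover the same substitutions, because S320 was not measured in N abundance. S320, with its larger errors, gave 1 of 18 lower in C, 0 of 12 in NC and 0 of 3 in PDZ3. Without it the loop's share would be higher in C, NC and PDZ3. Higher abundance was called for 6 in N, 1 in C, 3 in NC and 6 in PDZ3. The block's shares were 9.95% in N, 6.38% in C, 8.57% in NC and 7.86% in PDZ3. R318A in C was the only one of these calls outside T321.

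Binding was lowered in a similar number of loop substitutions in all 4 constructs. The counts were 81 of 127 in N, 84 of 133 in C, 78 of 130 in NC and 81 of 127 in PDZ3. The block had 66.9% lower in N, 66.7% in C, 55.9% in NC and 74.0% in PDZ3. With S320 included, the loop's share was below the block in PDZ3 and near it in the other 3. S320, measured with larger errors, gave 4 of 13 lower in N, 1 of 19 in C, 0 of 16 in NC and 3 of 13 in PDZ3. Without it the loop's share would be higher in each construct. Higher binding was called for 15 in N, 17 in C, 17 in NC and 8 in PDZ3. The block's shares were 6.75% in N, 9.85% in C, 12.6% in NC and 3.15% in PDZ3. All of these higher calls were at G322 or T321.

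With an extension, loop substitutions were called higher than in PDZ3 far more often than lower, and the counts were largest with both extensions. Each difference is the scaled level with the extension minus that in PDZ3. The 3 contrasts share the PDZ3 set. In abundance, 51 of 114 were higher and 5 lower in N, against 46.9% higher and 4.26% lower over the block. In C, 78 were higher and 3 lower, against 58.2% and 4.61%. In NC, 89 were higher and 2 lower, against 67.4% and 4.61%. The median loop difference in NC was 0.375, and the median over the block was 0.170.

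In binding the loop's shares of higher calls were below those of the block. The 122 substitutions tested here include 8 at S320, none of which was called. Of the 122, 32 were higher and 2 lower in N, against 37.2% and 1.06% over the block. In C, 59 were higher and 4 lower, against 55.6% and 3.69%. In NC, 67 were higher and 5 lower, against 64.4% and 2.73%. The median loop difference in NC binding was 0.199, close to the block's 0.209.

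Binding was also set against abundance within each construct, since the loop contacts the ligand directly. Of 114 substitutions, binding was lower than abundance for 43 in N, 56 in C, 64 in NC and 33 in PDZ3. The block had 37.5% in N, 36.4% in C, 41.2% in NC and 32.3% in PDZ3, while the loop had 37.7%, 49.1%, 56.1% and 28.9% in the same order. Binding was higher than abundance for 32 in N, 23 in C, 15 in NC and 27 in PDZ3, where the block had 23.1% in N, 22.2% in C, 18.4% in NC and 16.4% in PDZ3. On the unscaled score the split was 73 lower and 18 higher in N and 66 lower and 17 higher in PDZ3. In NC the higher count was 23 on that score. The added lower calls were mainly at G324 and F325. G324 had 4 lower in N and 2 in PDZ3 on the scaled levels, and 19 in N and 16 in PDZ3 on the unscaled score. F325 had 4 lower in N and 4 in PDZ3 on the scaled levels, and 17 in N and 15 in PDZ3 on the unscaled score.

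At R318, the arginine ahead of the motif, binding was lower than abundance for most substitutions in every construct. The 19 levels ran over -1.35 to -0.0327 in N, -0.570 to -0.0357 in C, -0.364 to -0.0253 in NC and -1.39 to -0.0705 in PDZ3 in binding. In abundance they ran over -0.958 to -0.0225 in N, -0.301 to 0.0384 in C, -0.0678 to 0.0236 in NC and -1.51 to -0.0313 in PDZ3. Lysine, the other long basic residue, was tolerated: R318K had a binding level of -0.0327 ± 0.0227 in N, -0.0357 ± 0.00853 in C, -0.0253 ± 0.00953 in NC and -0.0705 ± 0.0385 in PDZ3. Its abundance was -0.0564 ± 0.0116 in N, -0.0330 ± 0.0172 in C, -0.0229 ± 0.0152 in NC and -0.0747 ± 0.0153 in PDZ3. R318K was called lower in binding in C and NC, and its binding in N and PDZ3 did not pass the test. The other 18 substitutions were lower than the wild type in binding in all 4 constructs. Proline was the next best at this position, with R318P binding of -0.159 in N, -0.113 in C, -0.0841 in NC and -0.269 in PDZ3.

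Alanine, which removes most of the side chain in R318A, gave a binding level of -0.246 ± 0.0215 in N, -0.151 ± 0.00860 in C, -0.116 ± 0.00929 in NC and -0.371 ± 0.0338 in PDZ3. The abundance of R318A was -0.0479 ± 0.0107 in N, 0.0384 ± 0.0146 in C, 0.0113 ± 0.0124 in NC and -0.0428 ± 0.0110 in PDZ3. It was called higher than the wild type in C and did not pass the test in NC. Reversal of charge, in R318E, gave binding of -0.664 ± 0.0279 in N, -0.373 ± 0.0133 in C, -0.256 ± 0.0123 in NC and -0.996 ± 0.0375 in PDZ3. The abundance of R318E was -0.251 in N, -0.0531 in C, -0.0158 in NC and -0.531 in PDZ3. Compared with PDZ3, the abundance of R318E was higher by 0.280 ± 0.0378 with N, 0.478 ± 0.0371 with C and 0.515 ± 0.0360 with NC.

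Large side chains at R318 lowered abundance most. R318W had abundance of -0.958 ± 0.0547 in N, -0.301 ± 0.0215 in C, -0.0630 ± 0.0158 in NC and -1.51 ± 0.140 in PDZ3, and R318F had -0.719 in N, -0.278 in C, -0.0678 in NC and -1.05 in PDZ3. In PDZ3 the abundance of R318W lay below the nonsense median, and its binding there was -1.39 ± 0.0550. The authors' error of R318W was over 3 times the block's median in PDZ3 abundance, N binding and C binding. Compared with PDZ3, the abundance of R318W was higher by 0.552 ± 0.151 with N, 1.21 ± 0.142 with C and 1.45 ± 0.141 with NC. Its binding was higher than in PDZ3 by 0.819 ± 0.0710 in C and 1.02 ± 0.0570 in NC, and the difference in N, 0.0345 ± 0.0920, was not called. Side-chain volume ranked the abundance of the 19 substitutions at R318 with a Spearman rho of -0.618 in N, -0.871 in C, -0.608 in NC and -0.634 in PDZ3.

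All 19 substitutions at R318 were lower in abundance in N and PDZ3, 9 were lower in C and 4 in NC. The 4 in NC were R318F, R318W, R318H and R318Y, and none of them was called with the errors multiplied by 2. In each of the 3 extended constructs, binding was lower than abundance for 18 of 19 substitutions, against 14 of 19 in PDZ3. Lysine was the exception in the extended constructs. R318Q had the largest gap in PDZ3, -0.636 ± 0.0415, with abundance of -0.0716 and binding of -0.708. In PDZ3 the single call in the opposite direction was R318I, at 0.227 ± 0.0582.

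S320 was measured with larger errors. Its substitutions were present for 13 in N binding, 19 in C binding, 16 in NC binding and 13 in PDZ3 binding, and for none in N, 18 in C, 12 in NC and 3 in PDZ3 abundance. The median authors' error at S320 was 0.262 score units in N binding and 0.253 in PDZ3 binding, against 0.0340 and 0.0484 over the block. Lower binding was called for 4 in N (S320K, S320R, S320F and S320Y), 1 in C (S320N), none in NC and 3 in PDZ3 (S320L, S320I and S320M). The levels in C binding, where all 19 were measured, ran over -0.134 to 0.0831, and no S320 substitution was called in more than 1 binding set. In abundance the one lower call was S320L in C. None of the binding calls was left with the errors multiplied by 2.

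Levels at T321 stayed near the wild type, although part of them passed the test. Over its 19 substitutions, binding averaged 0.00951 ± 0.0419 in N, 0.0210 ± 0.0960 in C, 0.00890 ± 0.0286 in NC and 0.000973 ± 0.0664 in PDZ3 and abundance -0.0166 ± 0.0639 in N, -0.00538 ± 0.0331 in C, 0.00160 ± 0.0209 in NC and -0.0149 ± 0.0688 in PDZ3 (SD over 19 substitutions). Abundance was higher for 6 and lower for 7 of the 19 in N, and likewise in PDZ3. Binding in C was higher for 7 and lower for 6, and in PDZ3 for 1 each. Alanine, which removes the hydroxyl group in T321A, gave binding of 0.0711 ± 0.0218 in N, 0.0443 ± 0.00708 in C, 0.0982 ± 0.00906 in NC and 0.135 ± 0.0399 in PDZ3. Serine, which keeps the hydroxyl group in T321S, gave 0.0149 ± 0.0203 in N, -0.00951 ± 0.00618 in C, 0.00190 ± 0.00741 in NC and 0.0137 ± 0.0364 in PDZ3. T321A was called higher in binding in all 4 constructs, while T321S was called in none of them. With the errors multiplied by 2 or widened to the spread of late nonsense variants, the T321A calls in N and PDZ3 were lost.

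The bulky T321W was the lowest substitution at this position in all 4 abundance sets, at -0.159 ± 0.0130 in N, -0.109 ± 0.0134 in C, -0.0457 ± 0.0133 in NC and -0.210 ± 0.0137 in PDZ3, and in the binding sets of N and PDZ3. In NC its binding, -0.0118 ± 0.00850, was not called. The value farthest from the wild type at T321 was the binding of T321K in C. T321K had binding of 0.0580 ± 0.0228 in N, 0.396 ± 0.0166 in C, 0.0546 ± 0.00899 in NC and 0.0685 ± 0.0393 in PDZ3, so that C stood far above the other 3 constructs. The difference between C and PDZ3 was 0.328 ± 0.0427, and the difference of the C effect with and without N was -0.331 ± 0.0492. The abundance of T321K was 0.0474 in N, 0.0323 in C, 0.00965 in NC and 0.0988 in PDZ3. In 38 double substitutions that joined T321K in C binding to a partner above -0.3, the double differed from the partner alone by a median of -0.00656. The high level of the single substitution was not seen in these doubles.

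At G322, the variable glycine of the motif, binding exceeded abundance for many substitutions. The 19 levels ran over -0.0616 to 0.315 in N, -0.0554 to 0.123 in C, -0.0253 to 0.0847 in NC and -0.307 to 0.349 in PDZ3 in binding. In abundance they ran over -0.555 to 0.0372 in N, -0.273 to -0.00163 in C, -0.166 to 0.0553 in NC and -1.26 to 0.0830 in PDZ3. Errors were larger here than at the neighbouring residues: the median authors' error of G322 in abundance was 0.0351 score units in N, 0.0655 in C, 0.0483 in NC and 0.0716 in PDZ3, where the block had 0.0116, 0.0230, 0.0165 and 0.0205. With errors over 3 times the block's median left out, 3 of the 19 remained for binding against abundance. The hydrophobic G322M illustrates the pattern, with binding of 0.290 ± 0.0771 in N, 0.123 ± 0.0267 in C, 0.0807 ± 0.0236 in NC and 0.349 ± 0.105 in PDZ3. The abundance of G322M was -0.243 ± 0.0405 in N, -0.138 ± 0.0598 in C, 0.0270 ± 0.0489 in NC and -0.602 ± 0.0859 in PDZ3. Binding was above the wild type in all 4 constructs, while abundance was lower in the 3 constructs other than NC. G322L had binding of 0.315 ± 0.0386 in N, 0.118 ± 0.0151 in C, 0.0799 ± 0.0118 in NC and 0.112 ± 0.0504 in PDZ3. The abundance of G322L was -0.387 in N, -0.139 in C, -0.0537 in NC and -0.737 in PDZ3. G322A, the smallest change, had binding of 0.260 ± 0.0489 in N, 0.101 ± 0.0201 in C, 0.0666 ± 0.0118 in NC and 0.279 ± 0.0570 in PDZ3. The abundance of G322A was -0.0903 ± 0.0378 in N, -0.00163 ± 0.0426 in C, -0.0350 ± 0.0475 in NC and -0.218 ± 0.0301 in PDZ3. The basic G322K had binding of 0.288 in N, 0.123 in C, 0.0843 in NC and 0.239 in PDZ3. The abundance of G322K was -0.0688 in N, -0.101 in C, -0.0101 in NC and -0.623 in PDZ3.

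Binding above the wild type was called for 10 of 19 in N, 10 in C, 12 in NC and 7 in PDZ3 at G322. With the errors multiplied by 2 these counts were 6 in N, 7 in C, 4 in NC and 2 in PDZ3, and with the errors widened to the spread of late nonsense variants 4 in N, 3 in C, 1 in NC and 0 in PDZ3. With zero placed at the mean synonymous variant they were 10 in N, 9 in C, 11 in NC and 5 in PDZ3. In PDZ3 the 7 were G322M, G322A, G322P, G322K, G322R, G322Q and G322L, which share neither charge nor size. All but G322Q were also called higher in N, C and NC.

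Binding above the wild type was called in no construct for G322D, G322E, G322N, G322S, G322T and G322W. G322D had binding of -0.0616 ± 0.0709 in N, -0.0554 ± 0.0216 in C, -0.0253 ± 0.0309 in NC and -0.0116 ± 0.0542 in PDZ3. The abundance of G322D was 0.0371 ± 0.0471 in N, -0.0358 ± 0.0580 in C, 0.0553 ± 0.0447 in NC and 0.0830 ± 0.0473 in PDZ3. G322E had binding of 0.00120 in N, -0.00404 in C, 0.0222 in NC and -0.0853 in PDZ3. The abundance of G322E was 0.0372 in N, -0.130 in C, -0.00550 in NC and 0.0154 in PDZ3. G322D was called lower in binding in C. In abundance, G322D was the highest substitution of the position in NC and PDZ3. Tryptophan was the lowest in PDZ3 binding, with -0.00660 ± 0.0691 in N, -0.0159 ± 0.0203 in C, -0.00484 ± 0.0244 in NC and -0.307 ± 0.0730 in PDZ3.

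Abundance at G322 was lowest for large and branched residues, and side-chain volume ranked it with a Spearman rho of -0.592 in N, -0.851 in C, -0.471 in NC and -0.693 in PDZ3 (19 substitutions). For hydropathy the rho was -0.694 in N, -0.209 in C, -0.291 in NC and -0.583 in PDZ3. G322F had abundance of -0.407 ± 0.0532 in N, -0.202 ± 0.0506 in C, -0.140 ± 0.0431 in NC and -1.26 ± 0.532 in PDZ3, and all 4 were called lower although the error in PDZ3 was large. G322I had -0.555 ± 0.0548 in N, -0.171 ± 0.0536 in C, -0.111 ± 0.0435 in NC and -1.14 ± 0.123 in PDZ3, and its binding was 0.0911 ± 0.0532 in N, 0.0570 ± 0.0230 in C, 0.0582 ± 0.0240 in NC and -0.278 ± 0.0688 in PDZ3. The binding of G322I was called higher than the wild type in C and NC, was not called in N and was called lower in PDZ3. Abundance was lower for 14 of 19 in N, 9 in C, 5 in NC and 15 in PDZ3. Binding exceeded abundance for 15 of 19 in N, 11 in C, 7 in NC and 16 in PDZ3, and binding was lower than abundance for none. Of the 3 left without the large errors, binding exceeded abundance for 2 in N, 2 in C, 1 in NC and 3 in PDZ3. With the errors multiplied by 2 the counts were 9 in N, 5 in C, 1 in NC and 9 in PDZ3. The largest called gap in PDZ3 was that of G322Y, 0.961 ± 0.0992, and in N that of G322L, 0.702 ± 0.0505.

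Double substitutions gave a second reading of G322 that the single substitutions did not enter. Where a G322 substitution was joined to a partner whose own binding was above -0.3, the double had a higher binding level than the partner alone in 60.2% of 93 doubles in N, 70.9% of 134 in C, 71.2% of 153 in NC and 88.9% of 18 in PDZ3. The median shift was 0.0518 in N, 0.0637 in C, 0.0599 in NC and 0.258 in PDZ3. In abundance the same shift was -0.225 in N, -0.175 in C, -0.0668 in NC and -0.657 in PDZ3. The median partner level in these binding doubles was -0.243 in N, -0.109 in C, -0.0951 in NC and -0.101 in PDZ3. These levels match L323F in N and C, L323Y in NC and L323W in PDZ3. In PDZ3 binding, L323W was the only L323 substitution above -0.3. The shares may thus rest on few partners at the adjacent residue, and the partners were not counted. Doubles at 1 residue share substitutions and partners, so these shares carry no test.

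At L323, which lines the pocket, tryptophan, methionine, phenylalanine, tyrosine and cysteine kept the most binding, and proline, glutamine and the charged residues were among the lowest. The 19 levels ran over -1.45 to -0.0563 in N, -1.17 to -0.0237 in C, -1.21 to -0.0242 in NC and -1.29 to -0.101 in PDZ3 in binding. In abundance they ran over -1.16 to -0.00510 in N, -0.790 to 0.00113 in C, -0.172 to 0.0142 in NC and -1.07 to -0.0150 in PDZ3. L323W was the best substitution in all 4 binding sets, at -0.0563 ± 0.0217 in N, -0.0237 ± 0.00855 in C, -0.0242 ± 0.00798 in NC and -0.101 ± 0.0369 in PDZ3, and its abundance was -0.0814 in N, -0.0696 in C, -0.0688 in NC and -0.0696 in PDZ3. L323M had binding of -0.164 ± 0.0218 in N, -0.0551 ± 0.0177 in C, -0.0556 ± 0.00794 in NC and -0.346 ± 0.0346 in PDZ3 and L323F -0.243 ± 0.0220 in N, -0.109 ± 0.0101 in C, -0.0771 ± 0.00859 in NC and -0.328 ± 0.0355 in PDZ3. The abundance of L323F was -0.00510 ± 0.0110 in N, 0.00113 ± 0.0200 in C, 0.0142 ± 0.0131 in NC and -0.0150 ± 0.0181 in PDZ3, and it was not called in any of the 4 constructs. The binding of L323Y was -0.260 in N, -0.116 in C, -0.0951 in NC and -0.349 in PDZ3. That of L323C, with a small side chain, was -0.261 in N, -0.0960 in C, -0.0846 in NC and -0.481 in PDZ3, near that of L323Y in the extended constructs and lower in PDZ3.

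The branched aliphatic L323I and L323V had lower binding than L323W, L323F and L323Y in all 4 constructs. L323I had binding of -0.439 ± 0.0236 in N, -0.276 ± 0.0115 in C, -0.217 ± 0.0107 in NC and -0.726 ± 0.0367 in PDZ3, and L323V had -0.766 ± 0.0216 in N, -0.538 ± 0.0159 in C, -0.395 ± 0.0130 in NC and -0.928 ± 0.0341 in PDZ3. Their abundance stayed high, at -0.102 in N, -0.0382 in C, -0.0231 in NC and -0.118 in PDZ3 for L323I and at -0.108 in N, -0.0183 in C, -0.00751 in NC and -0.173 in PDZ3 for L323V. L323A had binding of -0.632 ± 0.0210 in N, -0.299 ± 0.0108 in C, -0.212 ± 0.00954 in NC and -0.970 ± 0.0364 in PDZ3. The abundance of L323A was -0.318 in N, -0.0867 in C, -0.0267 in NC and -0.706 in PDZ3. Compared with PDZ3, the binding of L323A was higher by 0.338 ± 0.0420 with N, 0.671 ± 0.0379 with C and 0.758 ± 0.0376 with NC.

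Proline and acidic residues at L323 split the assays in the 3 extended constructs, as did most other substitutions there. In PDZ3 the difference between the assays was not called for L323D. L323P had binding of -1.17 ± 0.0328 in N, -1.17 ± 0.0343 in C, -1.21 ± 0.0406 in NC and -1.13 ± 0.0397 in PDZ3, which was at or below the nonsense level in all 4 constructs. Its abundance was -0.332 ± 0.0195 in N, -0.103 ± 0.0134 in C, -0.0368 ± 0.0105 in NC and -0.880 ± 0.0424 in PDZ3, so in NC a domain near the wild type in abundance bound at the nonsense level. L323D had binding of -1.0 in N, -0.995 in C, -1.01 in NC and -0.974 in PDZ3. The abundance of L323D was -0.376 in N, -0.141 in C, -0.0436 in NC and -0.879 in PDZ3. L323R had abundance of -1.16 ± 0.0617 in N, -0.790 ± 0.0280 in C, -0.172 ± 0.00978 in NC and -0.985 ± 0.0470 in PDZ3. The binding of L323R was -1.06 in N, -0.998 in C, -0.875 in NC and -1.08 in PDZ3. Binding minus abundance was -1.18 ± 0.0419 for L323P in NC and -0.962 ± 0.0358 for L323D.

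All 19 substitutions at L323 were lower than the wild type in binding in all 4 constructs. Abundance was lower for 18 of 19 in N, 14 in C, 9 in NC and 18 in PDZ3. Binding was lower than abundance for 16 of 19 in N, 17 in C, 18 in NC and 12 in PDZ3, and L323W was the only one with higher binding, in C and NC. The hydropathy of the new residue ranked binding with a Spearman rho of 0.691 in N, 0.648 in C, 0.643 in NC and 0.691 in PDZ3 over 19 substitutions. For volume the rho was 0.309 in N, 0.258 in C, 0.284 in NC and 0.275 in PDZ3.

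At G324 all 19 substitutions were called lower than the wild type in all 8 sets. Some of these losses were small: G324D in NC abundance was at -0.0375. With the errors multiplied by 2, 18 of the 19 were called lower in NC abundance. In PDZ3 binding they spread over a narrow range, with a lowest level of -1.02 (G324D), a median of -0.978 and a highest of -0.854 (G324A). In N the median was -0.970. With C the range opened: the median was -0.791 and the highest -0.331 (G324C) in C, and in NC the median was -0.524 and the highest -0.184, again G324C.

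Cysteine and alanine had the highest binding in C and NC, while the similarly small G324S was ninth in both. G324A, the smallest change, had binding of -0.895 ± 0.0222 in N, -0.378 ± 0.0112 in C, -0.213 ± 0.00880 in NC and -0.854 ± 0.0319 in PDZ3. The abundance of G324A was -0.837 ± 0.0443 in N, -0.356 ± 0.0143 in C, -0.130 ± 0.00833 in NC and -1.11 ± 0.0522 in PDZ3. G324C had binding of -0.839 ± 0.0233 in N, -0.331 ± 0.0108 in C, -0.184 ± 0.00926 in NC and -0.897 ± 0.0336 in PDZ3. The abundance of G324C was -0.812 in N, -0.327 in C, -0.108 in NC and -1.14 in PDZ3. The binding of G324C was higher than in PDZ3 by 0.566 ± 0.0353 in C and 0.713 ± 0.0348 in NC. In N it was higher by 0.0574 ± 0.0409, which was not called.

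G324P combined the highest abundance at the position in N, C and PDZ3 with binding at the nonsense level. Its abundance was -0.328 ± 0.0184 in N, -0.163 ± 0.00986 in C, -0.0763 ± 0.00805 in NC and -0.676 ± 0.0323 in PDZ3, and its binding was -0.951 ± 0.0240 in N, -1.01 ± 0.0272 in C, -0.991 ± 0.0285 in NC and -0.976 ± 0.0337 in PDZ3. The extensions changed the abundance of G324P in N, C and NC, and its binding was called different from PDZ3 in none of them. G324V had binding of -0.990 ± 0.0235 in N, -1.02 ± 0.0275 in C, -1.0 ± 0.0289 in NC and -0.989 ± 0.0332 in PDZ3, near the nonsense level everywhere, while its abundance was -1.16 ± 0.0611 in N, -0.988 ± 0.0335 in C, -0.446 ± 0.0165 in NC and -1.06 ± 0.0495 in PDZ3. The negatively charged G324D had abundance of -0.535 in N, -0.212 in C, -0.0375 in NC and -1.05 in PDZ3. The binding of G324D was -0.876 in N, -0.562 in C, -0.340 in NC and -1.02 in PDZ3.

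Abundance of G324 substitutions was higher than in PDZ3 for 8 of 19 in N, 18 in C and all 19 in NC, with mean differences of 0.129 with N, 0.510 with C and 0.845 with NC. Binding was higher for 3 of 19 with N, 12 with C and 15 with NC, with mean differences of 0.0249 with N, 0.219 with C and 0.403 with NC. In NC all 19 had lower binding than abundance, with a mean of -0.379. In the binding of PDZ3, volume ranked the substitutions with a rho of -0.389, and in C with -0.537.

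At F325, the pocket phenylalanine, methionine kept the most binding, followed by cysteine in the 3 extended constructs and by leucine in PDZ3. The 19 levels ran over -1.03 to -0.0912 in N, -1.02 to -0.0359 in C, -1.02 to -0.0304 in NC and -1.03 to -0.149 in PDZ3 in binding. In abundance they ran over -1.17 to -0.0715 in N, -1.08 to -0.0178 in C, -1.03 to -0.00757 in NC and -1.18 to -0.0590 in PDZ3. F325M was the best in all 4 binding sets, at -0.0912 ± 0.0195 in N, -0.0359 ± 0.00599 in C, -0.0304 ± 0.00708 in NC and -0.149 ± 0.0337 in PDZ3, and F325L had -0.225 ± 0.0172 in N, -0.137 ± 0.00622 in C, -0.101 ± 0.00690 in NC and -0.323 ± 0.0311 in PDZ3. The abundance of F325L was -0.0715 ± 0.00662 in N, -0.0178 ± 0.00597 in C, -0.00757 ± 0.00546 in NC and -0.0590 ± 0.00581 in PDZ3, and in NC it was the only F325 substitution not called lower than the wild type. F325C had binding of -0.185 in N, -0.0487 in C, -0.0423 in NC and -0.545 in PDZ3. F325I had binding of -0.283 ± 0.0190 in N, -0.212 ± 0.00821 in C, -0.165 ± 0.00857 in NC and -0.356 ± 0.0316 in PDZ3. The abundance of F325I was -0.0969 in N, -0.0552 in C, -0.0378 in NC and -0.0924 in PDZ3. Methionine, leucine and isoleucine thus stayed well above the nonsense level in PDZ3 as in the extended constructs.

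Several other substitutions were near the nonsense level in PDZ3 and higher with the extensions. F325Y, which adds a hydroxyl group to the wild-type ring, had binding of -0.862 ± 0.0237 in N, -0.316 ± 0.0101 in C, -0.0970 ± 0.00836 in NC and -1.01 ± 0.0343 in PDZ3. The abundance of F325Y was -1.13 ± 0.0609 in N, -0.694 ± 0.0246 in C, -0.149 ± 0.0108 in NC and -1.10 ± 0.0524 in PDZ3. Both assays of PDZ3 were near the nonsense median for F325Y, and both assays of NC were nearer to the wild type. F325W had binding of -0.937 ± 0.0231 in N, -0.384 ± 0.0112 in C, -0.195 ± 0.00879 in NC and -0.968 ± 0.0332 in PDZ3. The abundance of F325W was -0.593 in N, -0.280 in C, -0.0675 in NC and -0.955 in PDZ3. F325A had binding of -0.322 ± 0.0179 in N, -0.0639 ± 0.00581 in C, -0.0497 ± 0.00690 in NC and -0.813 ± 0.0312 in PDZ3. The abundance of F325A was -0.453 in N, -0.150 in C, -0.0450 in NC and -0.881 in PDZ3. With N alone, binding was higher than in PDZ3 by 0.490 ± 0.0359 for F325A and by 0.152 ± 0.0417 for F325Y, and F325W was not called. F325T, a smaller polar residue, had binding of -0.953 in N, -0.425 in C, -0.218 in NC and -0.924 in PDZ3. The abundance of F325T was -0.948 in N, -0.407 in C, -0.0740 in NC and -1.10 in PDZ3.

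F325S and F325H were well above the nonsense level in both assays in NC only. F325S had binding of -1.0 ± 0.0226 in N, -0.780 ± 0.0206 in C, -0.203 ± 0.00829 in NC and -0.941 ± 0.0322 in PDZ3. The abundance of F325S was -1.15 ± 0.0606 in N, -1.01 ± 0.0335 in C, -0.337 ± 0.0128 in NC and -1.16 ± 0.0536 in PDZ3. F325H had binding of -0.958 ± 0.0259 in N, -0.882 ± 0.0242 in C, -0.321 ± 0.0115 in NC and -0.959 ± 0.0336 in PDZ3. The abundance of F325H was -1.15 in N, -1.03 in C, -0.489 in NC and -1.07 in PDZ3. For both, N and PDZ3 lay near the nonsense level, C lay above it in binding and near it in abundance, and NC was the highest. The C effect on the binding of F325S was greater with N than without it, by 0.640 ± 0.0452, and for F325H by 0.560 ± 0.0502.

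Charged residues at F325 were near the nonsense level in nearly all sets. F325R had binding of -1.01 in N, -1.01 in C, -1.02 in NC and -0.911 in PDZ3. The abundance of F325R was -1.15 in N, -1.08 in C, -1.03 in NC and -1.09 in PDZ3. F325E had binding of -0.986 in N, -1.02 in C, -1.0 in NC and -1.01 in PDZ3. The abundance of F325E was -1.15 in N, -1.06 in C, -0.769 in NC and -1.18 in PDZ3. The binding of F325R was called lower than in PDZ3 in all 3 extended constructs, with differences of -0.102 ± 0.0389 with N, -0.0993 ± 0.0414 with C and -0.105 ± 0.0427 with NC. On the unscaled score the difference was the other way with C (0.267 score units) and with NC (0.483), and with the errors multiplied by 2 none of the 3 was called lower. Hydropathy ranked binding at F325 with a Spearman rho of 0.823 in N, 0.887 in C, 0.823 in NC and 0.682 in PDZ3, and abundance with 0.746 in N, 0.856 in C, 0.917 in NC and 0.594 in PDZ3 (19 substitutions each).

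Abundance of F325 substitutions was higher than in PDZ3 for 4 of 19 with N, 10 with C and 17 with NC. Binding was higher for 4 with N, 11 with C and 14 with NC. In NC, binding was higher than abundance for 4 of 19 and lower for 8, with differences of both signs and a mean of -0.0147, whereas the mean was -0.441 at L323 and -0.379 at G324. In N, binding was higher than abundance for 11 of 19, and on the unscaled score it was higher for none and lower for 17. Many of these 11 were near the nonsense level in both assays. F325G, for example, had abundance of -1.17 and binding of -0.926 in N. The 4 charged substitutions averaged -1.15 in abundance and -1.01 in binding. The part of that level in these calls was not tested.

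Across the loop, the substitutions that kept abundance above -0.2 while binding was below -0.5 differed between constructs. They were 2 of 114 in N (R318Q and L323V), 8 in C, 12 in NC and 5 in PDZ3 (R318G, R318N, R318Q, L323I and L323V). In C, 7 of the 8 were at L323 and the other was G324P. In NC, 8 were at L323 and 4 at G324, and none was at R318. The shares of the loop were 1.75% in N, 7.02% in C, 10.5% in NC and 4.39% in PDZ3, where all 1122 single missense substitutions measured in all sets had 8.56% in N, 9.09% in C, 7.66% in NC and 8.11% in PDZ3.

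By class of the new residue, charged substitutions had the lowest mean abundance in C and NC, whereas aromatic ones had the lowest in N and PDZ3. The order in C and NC rested on single residues, above all F325. There the 4 charged substitutions averaged -1.06 in C and -0.915 in NC, and the 2 aromatic ones -0.487 and -0.108. The charged mean was also the lower of these 2 classes at L323. At R318, T321, G322 and G324 the aromatic mean was the lower in both constructs. The mean abundance of the 17 aromatic substitutions at the 6 fully measured residues was -0.520 in N, -0.304 in C, -0.110 in NC and -0.735 in PDZ3. That of the 23 charged substitutions was -0.499 in N, -0.350 in C, -0.197 in NC and -0.632 in PDZ3, and that of the 29 aliphatic ones -0.319 in N, -0.151 in C, -0.0588 in NC and -0.475 in PDZ3. In binding the 6 prolines averaged -0.495 in N, -0.526 in C, -0.534 in NC and -0.526 in PDZ3, nearly the same in all constructs. This mean joins changes of opposite sign. R318P was -0.269 in PDZ3 and -0.0841 in NC, whereas G322P was 0.270 in PDZ3 and 0.0691 in NC. L323P and G324P were at or near the nonsense level in every construct. The aliphatic substitutions averaged -0.316 in N, -0.215 in C, -0.168 in NC and -0.433 in PDZ3. The classes hold different wild-type residues, and no test was made between them.

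The order of the 114 substitutions was more alike between constructs within an assay than between assays. Spearman's rho between constructs was between 0.906 and 0.984 in binding and between 0.836 and 0.940 in abundance. Between binding and abundance of the same construct it was 0.751 in N, 0.670 in C, 0.513 in NC and 0.695 in PDZ3. These are descriptions over substitutions that share sets, wild types and residues.

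Whether the effect of C depended on the presence of N was tested as the difference between NC minus N and C minus PDZ3. In binding, 24 of 122 loop substitutions had a higher C effect with N and 21 a lower one, against 13.5% and 24.9% over the block. In abundance, 24 of 114 were higher and 33 lower, against 11.3% and 31.4%, and on the unscaled score 21 were higher and 46 lower. The higher calls lay mostly at G324 and F325: in abundance 9 were at G324 and 10 at F325, and in binding 12 were at G324 and 7 at F325. Of the lower calls, 12 in abundance were at L323 and 9 at R318, and 9 in binding were at R318. Several of these substitutions were near the nonsense level in N, C or PDZ3. Others were near the wild type with C: mean abundance at R318 was -0.229 in N, -0.0619 in C, -0.0158 in NC and -0.421 in PDZ3. Less loss was thus left for C to reduce where N was present. The part of either level in the difference was not tested.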

How the data were processed

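Per the file headers, the deposited table lists protein variants with a score named fitness by the authors, the standard error of that score and a growth rate, per construct and assay; the authors merged the 3 cultures of a set into 1 value. The log base of the score, the read counts, the read merging and the variant caller were not given in the sources used here, so the depth is unknown. Cutadapt and FastQC are named in the submitters' processing notes. A 2-letter construct tag at the end of every sequence was removed before variants were aligned with the wild-type row. The 8 wild-type rows with a placeholder error of 100 were left out. For NC, which has no other wild-type row, the error of the growth rate was converted to an error of the score.

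With Python 3.11.15, numpy 2.4.6, scipy 1.17.1 and pandas 2.3.3, each score was scaled to put the wild type at 0 and the median single nonsense variant of that set at -1. The error of a scaled level combines the authors' errors of the variant and the wild type with that of the nonsense median. Against the wild type the test used the unscaled score. The other tests used scaled levels, and kept only substitutions with a value in every construct of the assay (for binding against abundance, in every set). All were two-sided normal tests with Benjamini-Hochberg adjustment over the block at 0.05. They rest on the authors' merged error, which may not hold the whole spread between cultures. The script was tested on simulated data.

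The substitutions named are the lowest and highest at each residue and set, the 4 largest rises and falls past the threshold in each contrast, and a list of conservative, alanine and motif changes. R318H, R318I, R318N, G322Q, S320I, S320M, S320Y, L323C, F325C, G324S, G322N and G322T were named after their values were seen, to spell out a count or an order. The loop, the lists and the rule were chosen with earlier results of these data known. Alternatives were errors multiplied by 2, errors widened by the spread of nonsense variants from residue 345 on, zero at the mean synonymous variant, the unscaled score, the scale from late nonsense variants, the wild-type error left out, high-error substitutions (over 3 times the median) left out, and substitutions measured in both constructs compared.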

Additional observations from a re-analysis of the deposited data

Results flagged for a closer look

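The effect of C differed with and without N for part of the loop by the test of the difference itself, (NC minus N) minus (C minus PDZ3) in scaled levels. In binding the difference was called lower for 21 substitutions and higher for 24. In abundance it was called lower for 33 and higher for 24.

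In binding, F325A had the largest called negative difference, -0.476 ± 0.0371: its level was -0.322 in N, -0.0639 in C, -0.0497 in NC and -0.813 in PDZ3. In C and NC, F325A was near the wild type, and the part of that level in the difference was not tested. G322I followed with -0.368 ± 0.0931. The largest positive differences were 0.640 ± 0.0452 for F325S and 0.560 ± 0.0502 for F325H, which were near the nonsense level in N and PDZ3.

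In abundance, G322I had -0.523 ± 0.151 and G322Y -0.512 ± 0.118. L323R had 0.792 ± 0.0831 and F325S 0.666 ± 0.0885. The levels of L323R were -1.16 in N, -0.790 in C, -0.172 in NC and -0.985 in PDZ3. With the errors multiplied by 2, no G322 substitution was called in either assay for this difference.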

How the results depend on the processing

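No paired analysis was possible because the table holds 1 merged value per variant, and leaving out single cultures was not run for the same reason. Of 236 counts recomputed under an alternative, 169 stayed within 1.5 times the reported count and 67 did not. The cause of each shift was not tested, apart from the wider errors, which by construction remove calls. The read depth is unknown and limits what can be said of single levels, most of all at S320 and G322, where the authors' errors are largest. Calls below the wild type in binding, and the higher abundance in NC than in PDZ3, stayed within 1.5 times under every alternative run.

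With the errors multiplied by 2, higher abundance than the wild type was called for 0 in C, 0 in NC and 2 in PDZ3, and lower abundance for 37 in NC. Higher binding than the wild type was called for 6 in N, 9 in C, 6 in NC and 2 in PDZ3. Against PDZ3, lower abundance was called for 1 with each extension or both, lower binding for 0 with any of them, and higher binding for 13 in N. The C effect was lower with N than without it for 8 in binding and 19 in abundance, and higher for 13 in binding. Binding exceeded abundance for 18 in N, 13 in C, 5 in NC and 13 in PDZ3.

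With the errors widened to the spread of late nonsense variants, higher abundance than the wild type was called for 0 in every construct, and lower abundance for 46 in C and 33 in NC. Higher binding was called for 4 in N, 5 in C, 3 in NC and 0 in PDZ3. Against PDZ3, abundance was lower for 1 with N, for 1 with C and for 0 with NC, and higher for 24 in N and 48 in C. Binding below that in PDZ3 was called for 0 substitutions with N, C or NC, and binding above it for 9 with N. The C effect was lower with N for 3 in binding and 13 in abundance, and higher for 6 in binding. Binding was below abundance for 21 in PDZ3 and above it for 9 in N, 7 in C, 4 in NC and 4 in PDZ3.

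With zero at the synonymous variants, higher abundance than the wild type was called for 2 in N, 0 in C, 0 in NC and 2 in PDZ3, higher binding for 11 in C, and lower abundance than in PDZ3 for 1 in NC. On the unscaled score, abundance was higher than in PDZ3 for 83 in N and lower for 6 in C, and binding was lower than in PDZ3 for 0 in N. On the same score, binding was below abundance for 73 in N and 66 in PDZ3 and above it for 18 in N, 23 in NC and 17 in PDZ3. With the scale from late nonsense variants, binding was lower than in PDZ3 for 1 in N. Without high-error substitutions, binding exceeded abundance for 19 in N, 14 in C and 14 in PDZ3.

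Over all loop substitutions, called differences turned their sign in 6 of 721 cases against the wild type with zero at the synonymous variants. None of these 6 was called with the turned sign. On the unscaled score the sign turned in 23 of 293 cases for binding minus abundance, in 2 of 397 against PDZ3 and in 1 of 102 for the C effect with and without N. With the turned sign, 17 of the 23 and both of the 2 also passed the test, so their direction depended on the scaling. The 1 for the C effect did not pass. Among the substitutions named, 6 values turned. With zero at the synonymous variants, T321A in PDZ3 abundance was -0.00257 score units from the wild type. On the unscaled score, the binding of F325R was 0.267 in C minus PDZ3 and 0.483 in NC minus PDZ3, and binding minus abundance was -0.0104 for G324A in PDZ3, -0.0699 for F325A in N and -0.259 for F325Y in N. Calls of named substitutions were lost in 112 cases with the errors multiplied by 2 and in 156 with the widened errors.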

Other observations

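Double substitutions at the other residues of the loop gave further levels that no comparison above used. Joined to a partner whose own binding was above -0.3, a G324 substitution shifted the partner by a median of -0.924 in N (872 doubles), -0.809 in C (1547), -0.774 in NC (1768) and -0.864 in PDZ3 (534). For R318 the median shift in binding was -0.590 in N (827), -0.311 in C (963), -0.225 in NC (1092) and -0.769 in PDZ3 (578). In NC abundance, doubles at G324 shifted their partner by a median of -0.302, where the median of the single G324 substitutions was -0.161. The mix of substitutions in the doubles was not matched to that of the singles. Doubles at T321 shifted their partner by -0.0193 in NC binding and -0.0317 in NC abundance. Doubles that share a residue or a partner are not independent.

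L323Q had binding of -1.45 ± 0.0591 in N, -0.989 ± 0.0304 in C, -0.828 ± 0.0269 in NC and -1.29 ± 0.0509 in PDZ3, so that in N and PDZ3 it lay below the median nonsense variant by more than its error. The abundance of L323Q was -0.872 ± 0.0479 in N, -0.308 ± 0.0196 in C, -0.0397 ± 0.0121 in NC and -1.05 ± 0.0583 in PDZ3.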
